A study of Mus musculus with 8 samples.

Results

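A group of 10 genes of tumor necrosis factor (TNF) signaling were followed in bone marrow derived macrophages (BMDM) that had been given bilirubin, the yellow pigment left when heme is broken down. The genes were chosen by name from the 53819 gene rows of the count table, with no measured value in the rule. The choice was made with earlier results of these data known. All 10 were found and passed the filter on low counts. They are the ligands *Tnf*, *Tnfsf9* and *Tnfsf13b*, the receptors *Tnfrsf1a* and *Tnfrsf1b*, the adaptor *Traf1*, the ubiquitin ligases *Birc2* and *Birc3*, the ubiquitin editor *Tnfaip3*, and *Tnfaip2*, a gene named for its induction by TNF. Marrow came from 4 female Balb/CJ mice aged 8 weeks, with no transgene or deletion named in the labels. It was grown for 5 days with M-CSF at 25 ng/mL, the growth factor that turns marrow precursors into macrophages. Cells of each mouse then received 2.5 µM bilirubin or DMSO, the vehicle, for 48 h, which gave 4 vehicle and 4 bilirubin libraries of polyA-selected RNA, paired by mouse. The comparison asked how bilirubin alters macrophage gene expression, and it holds 1 dose, 1 time and cells of 1 sex.

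TNF is made as a membrane protein and is cut from the macrophage surface, and both forms bind 2 receptors, TNFR1 from *Tnfrsf1a* and TNFR2 from *Tnfrsf1b*. TNFR1 is found on most cells and assembles a complex in which TRAF proteins and the cellular inhibitors of apoptosis, cIAP1 from *Birc2* and cIAP2 from *Birc3*, attach ubiquitin chains that activate NF-κB, whereas TNFR2 is more restricted and common on immune cells. NF-κB in turn transcribes *Tnf* itself and genes that strengthen or end the signal, among them *Birc3*, *Traf1* and *Tnfaip3*.

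Promoters are shown for *Tnf*, *Birc3* and *Traf1*, members of that group that were higher with bilirubin, so that the start of each gene can be read beside its values. Each runs from 250 bases before to 50 bases after a RefSeq start site, 5′ to 3′ on the gene's own strand, and capitals mark every match to 3 motifs on either strand. The strict κB-type motif is GGGA, any base, TTTCC; the loose one is GGG, any 5 bases, CC, which takes in every strict match; and the last is TATAAA. The table's build is GRCm38.p6, and each sequence matched GRCm39, the build of the files, at 1 place, all 3 on the minus strand: *Tnf* at chr17:35420934-35421233, *Birc3* at chr9:7873122-7873421 and *Traf1* at chr2:34851735-34852034.
Tnf: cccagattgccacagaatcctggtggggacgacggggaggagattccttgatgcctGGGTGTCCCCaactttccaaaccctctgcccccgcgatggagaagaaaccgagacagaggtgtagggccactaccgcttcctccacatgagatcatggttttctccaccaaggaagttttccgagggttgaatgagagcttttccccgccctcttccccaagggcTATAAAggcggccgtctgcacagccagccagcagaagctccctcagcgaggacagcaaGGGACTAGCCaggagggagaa
Birc3: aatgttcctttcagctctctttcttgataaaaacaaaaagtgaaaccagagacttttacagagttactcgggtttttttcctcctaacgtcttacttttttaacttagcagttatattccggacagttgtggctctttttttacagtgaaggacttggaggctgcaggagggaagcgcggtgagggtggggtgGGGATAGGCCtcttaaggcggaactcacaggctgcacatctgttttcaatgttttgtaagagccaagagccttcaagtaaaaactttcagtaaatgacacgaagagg
Traf1: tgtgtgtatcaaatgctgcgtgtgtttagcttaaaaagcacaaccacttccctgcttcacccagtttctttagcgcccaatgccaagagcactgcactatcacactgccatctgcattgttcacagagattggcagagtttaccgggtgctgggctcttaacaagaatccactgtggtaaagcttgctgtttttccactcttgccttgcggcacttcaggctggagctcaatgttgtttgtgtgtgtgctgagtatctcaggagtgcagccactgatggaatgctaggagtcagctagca
The loose κB-type motif matched *Tnf* with its first base at -194 and at 30 from the start site and *Birc3* at -57, and TATAAA matched *Tnf* at -29, while *Traf1* held none of the 3 motifs in this window. The table held 12 promoters for 9 of the 10 genes, of which 7 had the loose motif, beside 50.8% of all 32851 mouse promoters in it. TATAAA was found in 2 of the 12 (*Tnf* and a *Tnfaip3* promoter) and in 13.6% of all, and the strict κB-type motif in 0 of the 12 and 0.411% of all. These are matches of letters, and no binding was measured.

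Libraries held 37747315 to 47071714 estimated counts on genes with vehicle and 34142781 to 41054034 with bilirubin. The cells had the RNA profile of macrophages: 10 macrophage markers (*Adgre1*, *Cd68*, *Csf1r* and others) summed to 24825 to 25151 CPM (counts scaled to a common library size by TMM) with vehicle and 29233 to 31339 with bilirubin, and *Adgre1*, *Itgam*, *Lyz2* and *Cd14* among them rose. T and NK cell markers summed to 0.736 to 1.25 and 0.723 to 1.50 CPM, with *Cd3d*, *Cd3e*, *Cd3g*, *Cd8a*, *Trac*, *Ncr1* and *Nkg7* at 3 counts or fewer in every library. B cell markers summed to 2.52 to 3.03 and 1.05 to 2.24 CPM, with *Cd79a*, *Ms4a1*, *Pax5* and *Jchain* at that floor. Most of this sum came from *Ighm* (2.33 and 1.07 CPM, called lower). Dendritic cell markers summed to 1.19 to 2.19 and 1.55 to 2.19 CPM, with *Flt3*, *Xcr1*, *Clec9a*, *Siglech* and *Cd209a* at the floor. Neutrophil markers summed to 141 to 167 CPM with vehicle and 172 to 200 with bilirubin (*Ly6g* and *Camp* at the floor), nearly all of it *Mmp8* (143 and 163, not called) and *S100a8* (11.5 and 24.4, called higher), and osteoclast markers to 148 to 168 and 190 to 230 (*Calcr* and *Oscar* at the floor, 3 of 8 markers higher). Erythroid and megakaryocyte markers summed to 51.8 to 61.9 and 33.8 to 43.2 CPM, with *Klf1* and *Gp1bb* at the floor and nearly all of the sum from *Pf4* (56.2 and 38.8 CPM, called lower), and stromal and endothelial markers to 2.94 to 7.31 and 1.74 to 7.38, with *Col3a1*, *Dcn* and *Lum* there. Mast cell markers reached 0.0995 CPM in the highest library. The part of these shifts in the results below was not tested, and in bulk RNA more or fewer cells of a type and more or less RNA per cell cannot be told apart.

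With bilirubin 6 of the 10 TNF signaling genes were higher and 0 lower past the threshold, an adjusted p under 0.05 in edgeR's quasi-likelihood test with the mouse in the model and Benjamini-Hochberg adjustment over 13722 genes. Of all tested genes, 4.49% were called higher, 3.04% lower and 7.53% in either direction. The 10 genes were chosen with earlier results of these data known, so this comparison is no independent test of them. At an unadjusted p under 0.05, 1 gene (*Tnfsf9*) was lower, and DESeq2 and limma-voom also called 0 lower. The 6 were *Traf1*, *Tnf*, *Birc3*, *Tnfaip2*, *Tnfrsf1b* and *Tnfaip3*, in order of fold, and the 4 that did not pass were *Tnfrsf1a*, *Birc2*, *Tnfsf13b* and *Tnfsf9*. The median log2 fold change of the 10 was 0.40, beside -0.0018 for all tested genes. In 5 of the 10 every bilirubin culture lay above every vehicle culture, which held for 5.93% of all tested genes, and in 1 (*Tnfsf9*) every bilirubin culture lay below, which held for 4.69%. Each of the 6 called genes rose in 4 of 4 mice. The median change of the 10 genes was 0.28, 0.42, 0.43 and 0.60 on the log2 scale in mice 1 to 4.

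**Figure D1:**
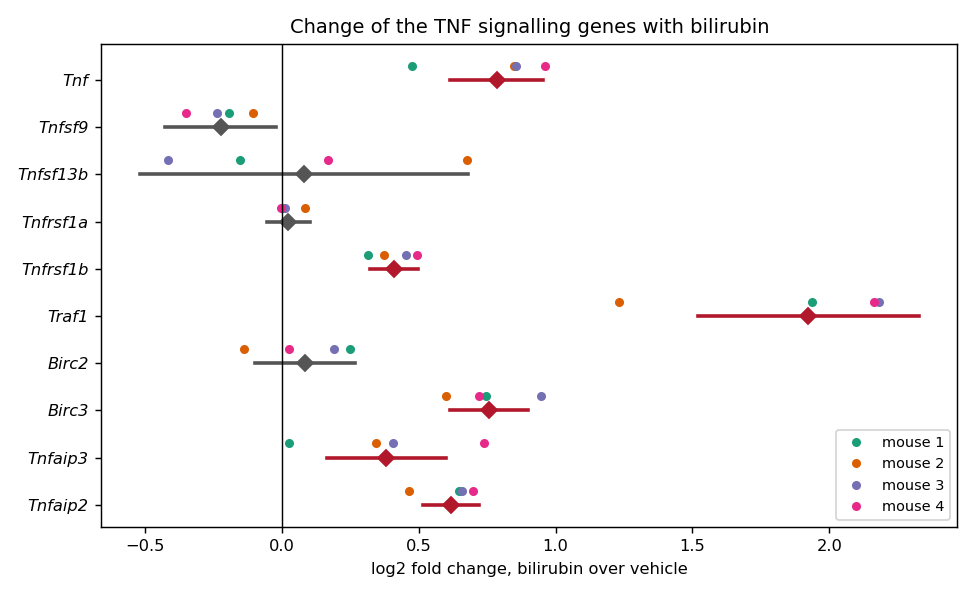
Log2 fold change of bilirubin over vehicle for the 10 TNF signaling genes, with the edgeR estimate (diamond, red where called) and its 95% confidence interval (bar) and the change within each of the 4 mice as dots. *Traf1* was highest at 1.92, the estimates of *Tnf*, *Birc3*, *Tnfaip2*, *Tnfrsf1b* and *Tnfaip3* lay between 0.38 and 0.79, and the mice of *Tnfaip3* ranged from 0.03 to 0.74.

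Of the ligands, *Tnf* rose and the others did not pass the test. *Tnf* (ENSMUSG00000024401, chr17:35418357-35420983, minus strand) had 38.0, 32.2, 40.1 and 38.5 CPM with vehicle (mice 1 to 4, in this order throughout) and 52.9, 57.9, 72.6 and 75.0 with bilirubin. The groups did not overlap, and the lowest bilirubin culture was that of mouse 1. The mean rose from 37.2 ± 3.49 to 64.6 ± 10.9 CPM (SD, n = 4), a log2 fold change of 0.79 (SE 0.07, 95% confidence interval 0.62 to 0.96, 1.72-fold) with an adjusted p of 5.84e-04 in edgeR's quasi-likelihood test. All of its reads were assigned to 1 of its 2 transcripts. The labels name no microbial stimulus, and *Tnf* mRNA was present in the vehicle cultures too.

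The neighbors of *Tnf* in the same gene cluster, *Lta* and *Ltb* (the lymphotoxin subunits, chiefly lymphocyte products), were near the limit of detection. *Lta* had 9 to 14 counts per library with vehicle and 3 to 19 with bilirubin (0.270 and 0.265 CPM, adjusted p = 0.946 by edgeR), and *Ltb* had 6 to 21 and 2 to 15 (0.319 and 0.284 CPM, adjusted p = 0.859 by edgeR). Their values overlapped between the groups.

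*Tnfsf9* (ENSMUSG00000035678, chr17:57412298-57414769, plus strand) encodes the ligand of the T cell costimulator CD137. It had 7.64, 7.66, 8.05 and 8.23 CPM with vehicle and 6.68, 7.11, 6.83 and 6.45 with bilirubin. Every bilirubin culture lay below every vehicle culture, by a small step. The mean was 7.89 ± 0.294 CPM with vehicle and 6.77 ± 0.281 with bilirubin (SD, n = 4), a log2 fold change of -0.22 (SE 0.09, 95% confidence interval -0.42 to -0.02). The p of edgeR's test was 0.0345 before adjustment and 0.196 after it, so the difference was not called. The gene overlaps the antisense RNA *Gm11110* over 679 bases. *Gm11110* itself held 121 to 135 counts with vehicle and 106 to 136 with bilirubin. Without strand, a read that lies within the shared stretch could come from either gene. The estimated counts of *Tnfsf9* were whole to within 0.01 in all 8 libraries, and whether reads were divided between both genes was not tested. The receptor gene of *Tnfsf9*, *Tnfrsf9*, had 3 counts or fewer in the vehicle libraries and 2 to 10 in the bilirubin libraries, too few for the test.

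*Tnfsf13b* (ENSMUSG00000031497, chr8:10056467-10089072, plus strand), the B cell survival factor BAFF, was the least abundant of the 10. Its CPM ran from 0.848 to 1.41 with vehicle and from 0.623 to 1.59 with bilirubin, on 32 to 60 and 25 to 64 counts. The ranges overlapped throughout, and the log2 fold change was 0.08 with a 95% confidence interval of -0.52 to 0.68 (edgeR adjusted p = 0.912). The spread between mice (CV of 25.5% with vehicle and 36.6% with bilirubin) and a counting error of up to 20.0% in a library both bear on this width. On average 37.1% of the *Tnfsf13b* reads with vehicle and 37.9% with bilirubin were assigned to a transcript annotated for nonsense-mediated decay. A retained-intron transcript took 5.27% and 23.0%, so the gene total is not a measure of coding mRNA alone. Of the receptors for BAFF, *Tnfrsf13b* (TACI) had 27.8 CPM with vehicle and 27.0 with bilirubin (adjusted p = 0.761 by edgeR), whereas *Tnfrsf13c* had at most 2 counts in any library and *Tnfrsf17* at most 6.

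Of the 2 TNF receptors, *Tnfrsf1b* rose and *Tnfrsf1a* did not pass the test. *Tnfrsf1b* (ENSMUSG00000028599, chr4:144938938-144973477, minus strand) had 355, 385, 369 and 328 CPM in the vehicle cultures and 443, 498, 506 and 463 in the bilirubin cultures. The groups did not overlap. The mean rose from 359 ± 23.9 to 477 ± 29.7 CPM (SD, n = 4), with a log2 fold change of 0.41 (SE 0.04, 95% confidence interval 0.32 to 0.50, 1.33-fold) and an adjusted p of 5.78e-04 in edgeR's quasi-likelihood test. The mice moved by 0.32, 0.37, 0.46 and 0.50 on the log2 scale, a narrow spread.

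*Tnfrsf1a* (ENSMUSG00000030341, chr6:125325566-125339632, plus strand) had 163, 166, 160 and 160 CPM with vehicle and 164, 177, 161 and 159 with bilirubin. The groups overlapped almost fully. The mean was 162 ± 3.22 and 165 ± 7.79 CPM (SD, n = 4), and the log2 fold change of 0.02 had a 95% confidence interval of -0.05 to 0.10 (edgeR adjusted p = 0.752). Its sign turned to -0.0019 when libraries were scaled by their totals alone.

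The ratio of both receptors within a library was taken on TPM, the unit that divides reads by transcript length before scaling. *Tnfrsf1b* over *Tnfrsf1a* was 1.20, 1.23, 1.28 and 1.09 with vehicle and 1.44, 1.44, 1.63 and 1.57 with bilirubin. Every bilirubin ratio lay above every vehicle ratio. Within mice the ratio rose by 0.34 ± 0.13 on the log2 scale (SD, n = 4) in 4 of 4 mice, with an exact two-sided sign-flip permutation p of 0.125, the smallest that 4 pairs allow, so that no call can be reached by this test.

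**Figure D2:**
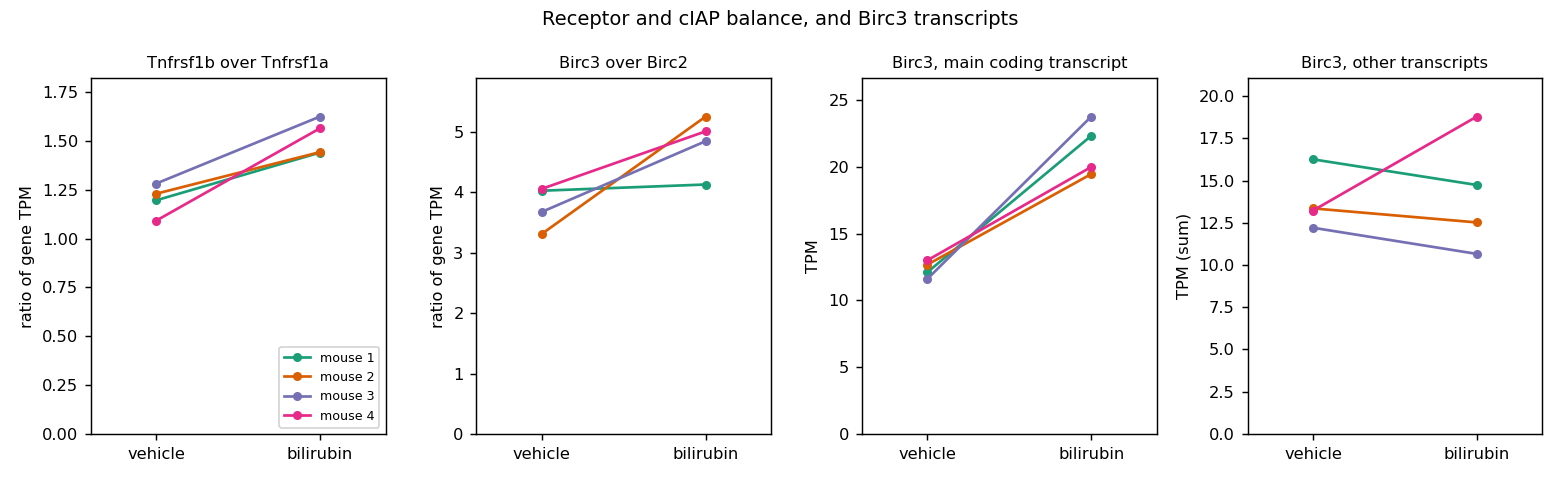
Ratios of *Tnfrsf1b* to *Tnfrsf1a* and of *Birc3* to *Birc2* in TPM, and TPM of the main coding transcript and of the other transcripts of *Birc3*, for vehicle and bilirubin cultures joined by mouse. Both ratios were higher with bilirubin in 4 of 4 mice. The main *Birc3* transcript, which held most of the gene's reads, rose from 12.4 to 21.4 TPM while the other transcripts had 13.8 and 14.2.

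Of the proteins that bind behind the receptors, *Traf1* and *Birc3* rose and *Birc2* did not pass. *Traf1* (ENSMUSG00000026875, chr2:34831762-34851837, minus strand), an adaptor that joins with TRAF2 and lacks its ubiquitin ligase domain, had 2.08, 1.77, 2.04 and 1.69 CPM with vehicle and 8.11, 4.24, 9.42 and 7.76 with bilirubin. Every bilirubin culture lay well above every vehicle culture, and mouse 2 had the smallest rise. The mean rose from 1.90 ± 0.193 to 7.38 ± 2.22 CPM (SD, n = 4), a log2 fold change of 1.92 (SE 0.18, 95% confidence interval 1.52 to 2.33, 3.79-fold) with an adjusted p of 5.13e-04 in edgeR's quasi-likelihood test. It was the largest fold of the 10 genes, on low counts: 67 to 99 per vehicle library and 153 to 378 per bilirubin library, so that counting error alone was up to 12.2% in a library.

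Several *Traf1* transcripts shared these reads. Its main coding transcript held 35.1 to 52.2% of the gene's reads with vehicle and 45.6 to 61.5% with bilirubin, and its level rose from 0.691 ± 0.182 to 3.01 ± 1.02 TPM (SD, n = 4), higher in each of the 4 mice. *Traf2*, the partner of TRAF1 and of both cIAP proteins, had 18.9 CPM with vehicle and 20.4 with bilirubin (log2 fold change 0.11, adjusted p = 0.396 by edgeR) and did not pass.

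*Birc3* (ENSMUSG00000032000, chr9:7845790-7873229, minus strand) had 22.4, 23.3, 21.4 and 23.7 CPM with vehicle and 37.6, 35.4, 41.3 and 39.1 with bilirubin. The groups lay far apart, and each was narrow. The mean rose from 22.7 ± 1.04 to 38.3 ± 2.48 CPM (SD, n = 4), a log2 fold change of 0.76 (SE 0.06, 95% confidence interval 0.61 to 0.90, 1.69-fold) with an adjusted p of 2.75e-04 in edgeR's quasi-likelihood test. With an offset for transcript length the log2 fold change was smaller, 0.49 (edgeR adjusted p = 0.0108), and still higher. The main coding transcript rose from 12.4 ± 0.614 to 21.4 ± 2.02 TPM, whereas the other transcripts together had 13.8 ± 1.74 and 14.2 ± 3.50 TPM (SD, n = 4), with changes of -0.20 to 0.51 on the log2 scale. The main transcript thus took 42.7 to 49.6% of the gene's TPM with vehicle and 51.5 to 69.0% with bilirubin, and 85.7 to 88.1% and 87.6 to 95.3% of its reads. Much of the others' TPM came from transcripts of 355, 360 and 565 bases, each with at most 5.91% of the gene's reads per library.

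*Birc2* (ENSMUSG00000057367, chr9:7818227-7837120, minus strand), which lies beside *Birc3*, had 12.0 to 13.7 CPM with vehicle and 12.5 to 15.1 with bilirubin. These ranges overlapped, and the mice moved in both directions, by 0.25, -0.14, 0.19 and 0.03 on the log2 scale. The log2 fold change was 0.08 (SE 0.08, 95% confidence interval -0.10 to 0.27), with an adjusted p of 0.625 in edgeR's quasi-likelihood test.

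The 2 cIAP genes are paralogs, and the estimated counts were not whole (by over 0.01) in 7 of 8 libraries for *Birc3* and in 5 of 8 for *Birc2*. Which genes shared reads was not tested. The sum of *Birc2* and *Birc3*, which does not depend on a division between them, was 35.1, 37.0, 33.4 and 36.0 CPM with vehicle and 52.7, 47.8, 55.0 and 51.6 with bilirubin, with no overlap and a change of 0.37 to 0.72 on the log2 scale within mice. *Birc3* over *Birc2* in TPM was 4.03, 3.31, 3.68 and 4.06 with vehicle and 4.13, 5.26, 4.85 and 5.01 with bilirubin. On TPM, mouse 1 stood out with nearly the same ratio in both cultures. On CPM, *Birc3* rose by 0.75 and *Birc2* by 0.25 on the log2 scale in that mouse. The log2 ratio rose by 0.35 ± 0.26 (SD, n = 4) on TPM in 4 of 4 mice (exact sign-flip permutation p = 0.125, the smallest possible) and by 0.67 on CPM.

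**Figure D3:**
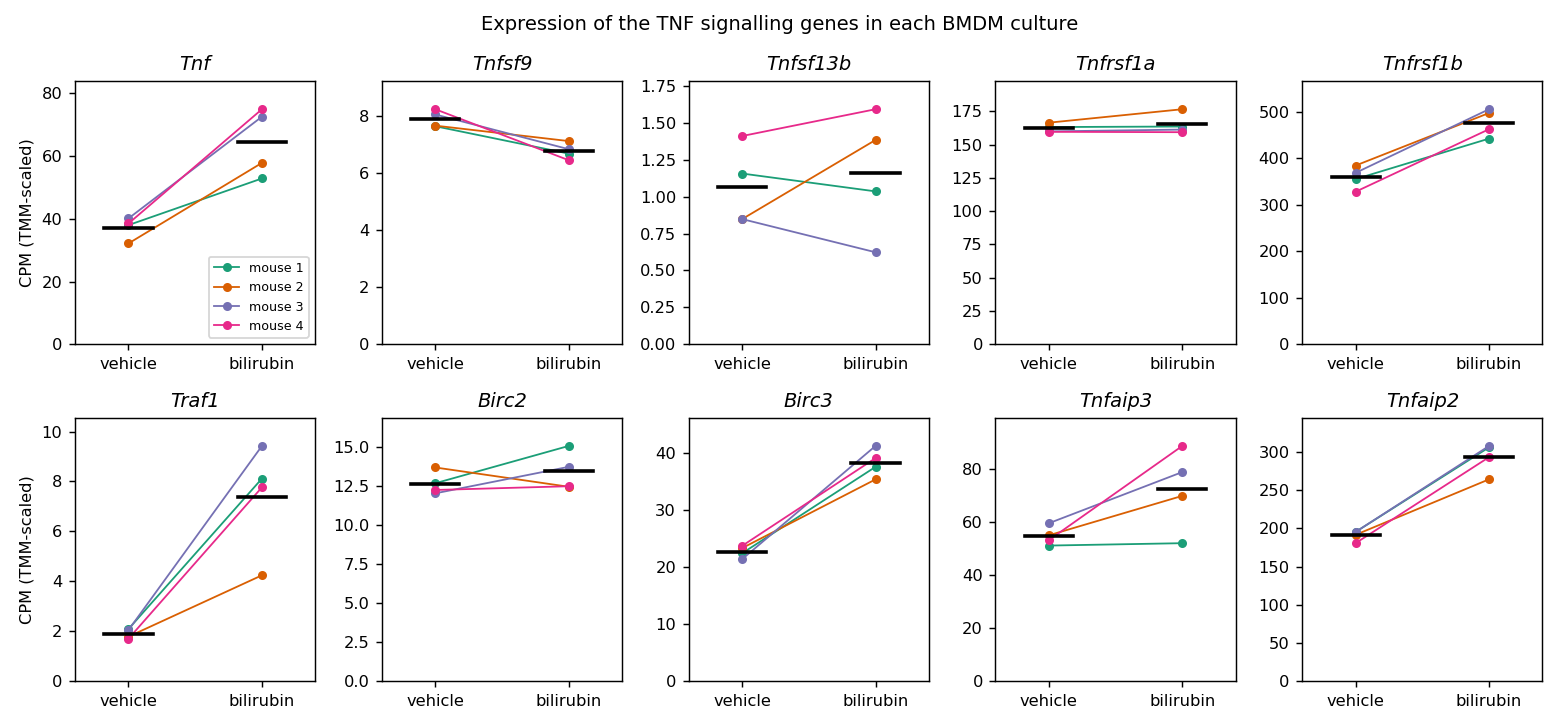
CPM of each of the 10 TNF signaling genes in vehicle and bilirubin cultures, with a line for each of the 4 mice, a black bar at each group mean and each vertical axis starting at 0. The groups are apart for *Tnf*, *Tnfrsf1b*, *Tnfaip2*, *Traf1*, *Birc3* and, downward, *Tnfsf9*, and the bilirubin culture of mouse 1 (52.0 CPM) lies within the vehicle range for *Tnfaip3*.

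The brake *Tnfaip3* rose with a wide spread between mice. *Tnfaip3* (ENSMUSG00000019850, chr10:18874201-18891405, minus strand) encodes A20, which removes and rebuilds ubiquitin chains and so shuts NF-κB signaling down. It had 51.1, 54.9, 59.5 and 53.1 CPM with vehicle and 52.0, 69.8, 78.8 and 88.7 with bilirubin. Mice 2, 3 and 4 had bilirubin cultures above all vehicle cultures, and mouse 1 hardly moved, with changes of 0.03, 0.35, 0.41 and 0.74 on the log2 scale in mice 1 to 4. The mean was 54.7 ± 3.59 with vehicle and 72.3 ± 15.6 CPM with bilirubin (SD, n = 4), a log2 fold change of 0.38 (SE 0.09, 95% confidence interval 0.16 to 0.60, 1.30-fold). Its adjusted p of 0.0487 in edgeR's quasi-likelihood test lay just under the threshold. Without the mouse in the model the adjusted p was 0.112, with the length offset 0.223, and without mice 2, 3 or 4 it was 0.149, 0.241 and 0.173, whereas without mouse 1 it was 4.20e-04.

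Of genes known to be induced by TNF, *Tnfaip2* rose in every mouse. *Tnfaip2* (ENSMUSG00000021281, chr12:111408858-111421452, plus strand) encodes a protein that takes part in forming membrane nanotubes. It had 196, 192, 195 and 181 CPM with vehicle and 307, 265, 308 and 294 with bilirubin. The groups did not overlap, and mouse 2 had the smallest change. The mean rose from 191 ± 6.97 to 293 ± 20.2 CPM (SD, n = 4), a log2 fold change of 0.62 (SE 0.04, 95% confidence interval 0.52 to 0.72, 1.53-fold) with an adjusted p of 1.59e-04 in edgeR's quasi-likelihood test, the lowest of the 10. Its main transcript held 92.6 to 95.2% of the reads with vehicle and 92.8 to 95.7% with bilirubin. The 2 *Tnfaip* genes among the 10 share a name, not a protein family, and the other tested genes so named did not pass: of 6 tested *Tnfaip* genes, 2 were higher and 4 did not pass.

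The mice did not rank the same way for all genes. Mouse 1 had the smallest change for *Tnf*, *Tnfrsf1b* and *Tnfaip3*, and mouse 2 for *Tnfaip2*, *Traf1*, *Birc2* and *Birc3*. For the 5 genes whose bilirubin cultures all lay above the vehicle cultures, the smallest change was above 0: 0.48 for *Tnf*, 0.32 for *Tnfrsf1b*, 0.46 for *Tnfaip2*, 1.23 for *Traf1* and 0.60 for *Birc3*, each on the log2 scale.

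Compared per transcript length, the receptors and *Tnfaip2* stood above the rest. The mean TPM with vehicle was 161 for *Tnfrsf1b*, 134 for *Tnfrsf1a*, 89.0 for *Tnfaip2* and 39.4 for *Tnf*. It was 26.1 for *Birc3*, 24.6 for *Tnfaip3*, 11.0 for *Tnfsf9*, 6.96 for *Birc2*, 1.96 for *Traf1* and 1.03 for *Tnfsf13b*. Neighbors in this order had ranges over the 4 mice that did not overlap, except *Birc3* with *Tnfaip3* and *Traf1* with *Tnfsf13b*. With bilirubin the mean TPM was 204 for *Tnfrsf1b*, 137 for *Tnfaip2*, 134 for *Tnfrsf1a* and 66.1 for *Tnf*. It was 35.6 for *Birc3*, 30.3 for *Tnfaip3*, 9.11 for *Tnfsf9*, 7.48 for *Birc2*, 6.78 for *Traf1* and 1.32 for *Tnfsf13b*. *Tnfaip2* thus reached the level of *Tnfrsf1a*, with overlapping ranges, and *Traf1* that of *Birc2*, while *Birc3* with *Tnfaip3* and *Tnfsf9* with *Birc2* also overlapped.

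**Figure D4:**
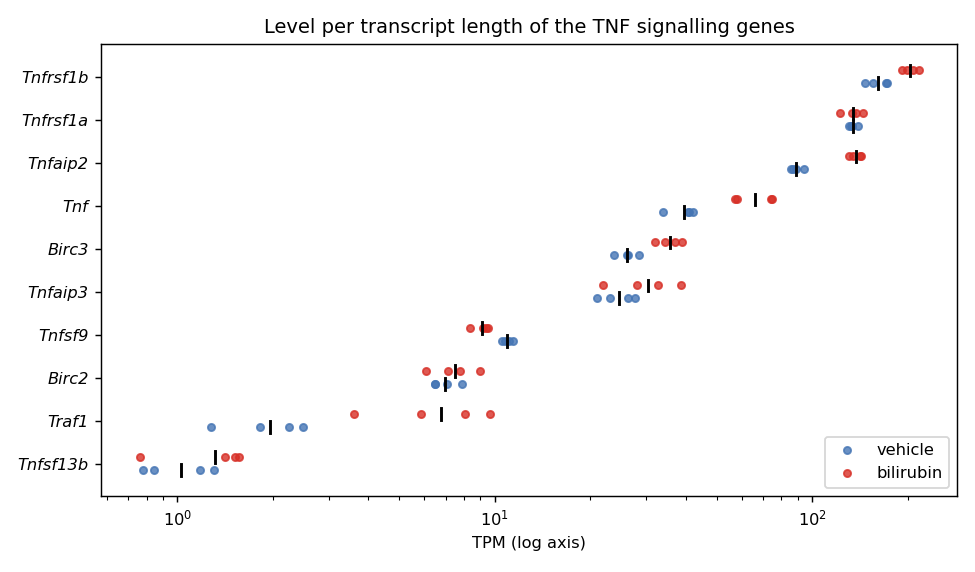
TPM of the 10 TNF signaling genes in each vehicle and bilirubin culture on a log axis, ordered by level. *Tnfrsf1b* was highest in both groups (161 and 204 TPM on average) and *Tnfsf13b* lowest (1.03 and 1.32).

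Most of the rest of the pathway did not pass the test. In 6 lists of ligands, receptors, receptor complexes, ubiquitin editors, shedding and mRNA control factors and *Tnfaip* genes, 78 genes other than the 10 were tested, of which 10 were higher, 2 were lower and 66 did not pass. That is 15.4% called in either direction, beside 7.53% of all tested genes, with a median log2 fold change of 0.01. Whether these shares differ was not tested, and the lists were also chosen with earlier results of these data known.

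Among ligands, 11 of 18 listed genes were tested: 1 was higher (*Tnf*), 1 was lower and 9 did not pass. The lower one was *Tnfsf12* (the cytokine TWEAK), at 85.0 ± 4.25 CPM with vehicle and 73.6 ± 4.87 with bilirubin (SD, n = 4), a log2 fold change of -0.21 (edgeR adjusted p = 0.0447). Its groups overlapped and its estimated counts were not whole numbers. The call was lost without the mouse in the model, with the length offset and without mouse 3 or mouse 4 (adjusted p up to 0.253 in edgeR). Among receptors, 16 of 28 were tested, and *Fas*, the death receptor, joined *Tnfrsf1b* as higher: it had 3.04 ± 0.169 and 5.38 ± 0.824 CPM (SD, n = 4), a log2 fold change of 0.82 (edgeR adjusted p = 0.0118), which lost the call without mouse 3 or mouse 4. The other 14 receptors tested did not pass.

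Of 29 genes of the receptor complexes, all tested, 5 were higher, 1 was lower and 23 did not pass, and the higher ones included *Traf1* and *Birc3*. *Traf3*, a brake on the noncanonical NF-κB pathway, rose from 50.7 ± 2.09 to 67.3 ± 5.53 CPM (log2 fold change 0.41, edgeR adjusted p = 0.00265, n = 4). *Traf6*, the ligase behind Toll-like and interleukin-1 receptors, fell from 55.9 ± 2.98 to 45.5 ± 2.15 CPM (log2 fold change -0.29, edgeR adjusted p = 0.00478, n = 4). *Mlkl*, the executor of necroptosis, rose from 17.6 ± 0.806 to 23.0 ± 1.74 CPM (log2 fold change 0.38, edgeR adjusted p = 0.00502, n = 4), with an adjusted p of 0.0508 without mouse 3. The remaining one was the kinase gene *Map3k8*, named after its value was seen, at 5.72 and 8.90 CPM with overlapping groups (edgeR adjusted p = 0.0346, and 0.325 with the length offset).

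Of the 15 ubiquitin editors and brakes, 4 were higher and 11 did not pass. Besides *Tnfaip3* these were 3 genes of A20-binding or TRAF-binding proteins. *Tnip3* rose from 43.5 ± 6.97 to 101 ± 23.3 CPM (log2 fold change 1.20, edgeR adjusted p = 1.70e-05, n = 4), more than any of the 10 genes except *Traf1*. *Tnip1* rose from 87.2 ± 4.36 to 126 ± 14.0 CPM (log2 fold change 0.52, edgeR adjusted p = 9.73e-04, n = 4). *Tank* rose from 38.8 ± 1.47 to 45.9 ± 3.20 CPM (log2 fold change 0.24, edgeR adjusted p = 0.0412, n = 4), a call lost without mouse 2, 3 or 4, with the length offset and on library totals.

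Of 13 tested genes that release TNF or control its mRNA, 3 were higher and 10 did not pass. *Adam17*, the protease that sheds TNF and both TNF receptors, rose from 280 ± 10.8 to 371 ± 24.9 CPM (log2 fold change 0.41, edgeR adjusted p = 6.04e-04, n = 4), with no overlap. *Zc3h12a*, the RNase Regnase-1 that degrades cytokine mRNAs, rose from 17.6 ± 0.435 to 28.3 ± 6.23 CPM (log2 fold change 0.66, edgeR adjusted p = 0.00475, n = 4), and lost the call with the length offset and without mouse 3. *Sppl2a*, a protease that cleaves the membrane stub left after shedding, rose from 124 ± 2.57 to 140 ± 3.13 CPM (log2 fold change 0.18, edgeR adjusted p = 0.0210, n = 4), a call lost with the length offset and without mouse 3 or 4.

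**Figure D5:**
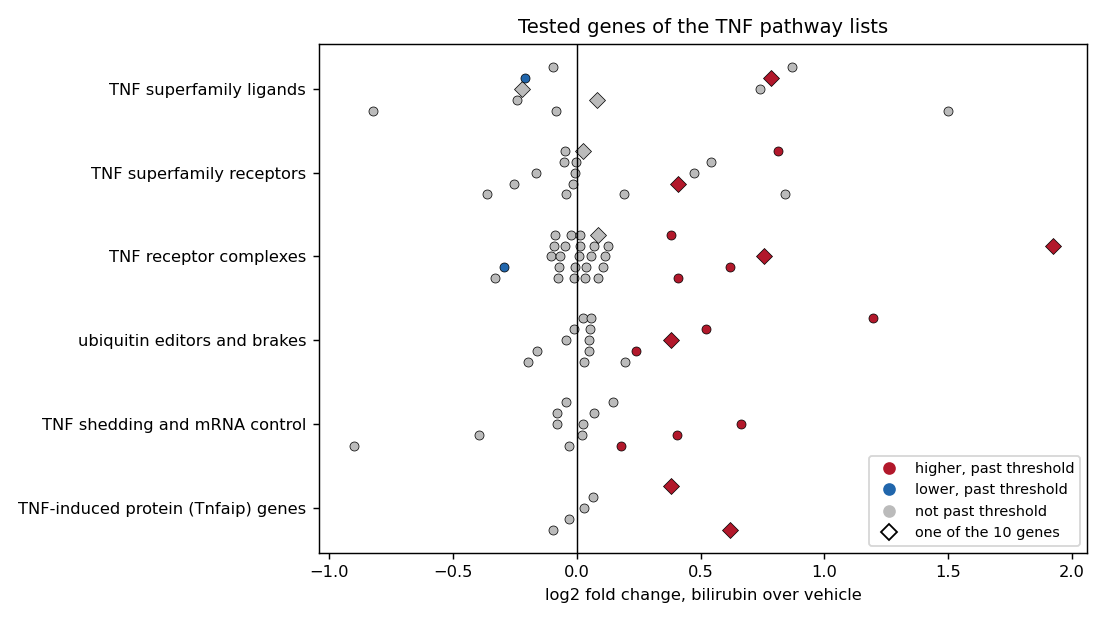
Log2 fold change of bilirubin over vehicle for each tested gene of 6 TNF pathway lists, with genes called higher in red, called lower in blue and not called in gray, and diamonds for the 10 TNF signaling genes. Most genes lie near 0 (list medians of -0.08 to 0.05), and *Traf1* and *Tnip3* lie farthest to the right among those called, at 1.92 and 1.20.

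The tested genes whose pattern over the 8 libraries was nearest to *Tnf*, by the root mean square distance between gene-centered log2 CPM, included *Zfp462* (0.109), *Igsf6* (0.113), *Ptpn22* (0.120) and *Nfkbiz* (0.127). These are not in the pathway lists. The nearness is a description over 8 libraries that share the treatment, and *Igsf6* and *Nfkbiz*, for example, ran from 80.7 to 90.8 and 5.40 to 6.20 CPM with vehicle and from 122 to 162 and 8.75 to 13.2 with bilirubin.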

How the data were processed

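RNA was sequenced from 8 paired BMDM cultures of 4 mice. The authors trimmed reads with Trim Galore 0.6.7 and Cutadapt 3.4, aligned them to GRCm39 with STAR 2.7.9a and quantified transcripts with Salmon 1.10.1. The authors deposited estimated counts per gene (88.5% of values whole), and estimated counts and TPM per transcript. The use of strand in counting is not given in the sources used here.

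Counts were rounded and fitted in R 4.3.3 with edgeR 4.0.16: TMM scaling, filterByExpr (10 counts, 15 in total), mouse and treatment in the model, quasi-likelihood test, Benjamini-Hochberg adjustment over 13722 genes, threshold 0.05. Folds and CPM come from this scaling. A prior count of 2 was used for log2 CPM, from which the changes of single genes within mice were taken. TPM was summed per gene. The fit was tested on simulated data in which the changed genes moved 2-fold, and smaller changes were not simulated. The labels pair cultures by mouse. Deviations from group means correlated by 0.108, 0.134, 0.108 and -0.0053 within mice 1 to 4. Between different mice they correlated by -0.0279 on average and 0.0751 at most. Taking out each group's mean ties these values to one another, so they are no independent check of the pairing.

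Named genes were the 10 members, up to 3 called genes per list by adjusted p, the receptors of *Tnfsf9* and *Tnfsf13b*, *Traf2*, *Lta*, *Ltb* and the 5 genes nearest to *Tnf*; some genes are not reported here. The members and lists were chosen with earlier results of these data known. Gene positions are GRCm39 (GENCODE). Alternatives were no mouse term, DESeq2 1.42.0, limma-voom (limma 3.58.1), DESeq2 size factors, library totals, no filter, a CPM above 1 in 4 libraries, a transcript length offset and each mouse left out. The 95% confidence intervals of log2 fold changes come from the quasi-likelihood fit with the mouse in the model. The percentages given as counting error leave out the spread between mice.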

Additional observations from a re-analysis of the deposited data

How the results depend on the processing

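*Tnf*, *Tnfrsf1b*, *Tnfaip2*, *Traf1* and *Birc3* were called higher under all 12 alternatives, and *Tnfaip3* under 7, so that 5 of the 10 genes were higher where it was lost. *Tnfrsf1a*, *Tnfsf9*, *Tnfsf13b* and *Birc2* passed under none of the 12. The sign turned for *Tnfrsf1a* on library totals (-0.0019) and for *Tnfsf13b* without mouse 2 (-0.12), both uncalled. For *Tnfsf13b*, leaving out each mouse gave -0.12 to 0.23 and the length offset gave 0.38. Without the replicate block, which ignores the pairing by mouse, both ratios gave the same values (0.34 for the receptors and 0.35 for the cIAP genes) with an exact permutation p of 0.0286, the smallest possible there; leaving out a mouse gave 0.28 to 0.38 and 0.25 to 0.46. Of pathway genes other than the 10, 10 were higher and 2 lower; the length offset gave 6 and 1, the fit without the replicate block gave 1 lower, no filter 6 lower, and leaving out a mouse 4 to 15 higher (4 without mouse 3, 6 without mouse 4) and 1 to 3 lower (1 without mouse 3 or 4). Over all genes 1033 were called, against 686 without the replicate block, 580 with the length offset, 1692 with no filter, and 1910, 634, 377 and 441 without mice 1 to 4. On library totals 48.7% of calls were higher, against 59.6%. The cause of these shifts was not tested. Counting error was largest for *Tnfsf13b*, at up to 20.0% in a library. No value was flagged as a sample far from its group.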
